A study of Mus musculus with 2 samples.

Results

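The ligand, receptor and inhibitor genes of the bone morphogenetic protein (BMP) and transforming growth factor beta (TGF-beta) pathways were represented by 10 genes, followed across 2 single-cell libraries of mouse induced myogenic progenitor cells. The 10 were the ligand genes Bmp2 (ENSMUSG00000027358), Bmp4 (ENSMUSG00000021835), Tgfb1 (ENSMUSG00000002603) and Tgfb2 (ENSMUSG00000039239), the receptor genes Bmpr1a (ENSMUSG00000021796), Bmpr1b (ENSMUSG00000052430) and Tgfbr1 (ENSMUSG00000007613), the secreted antagonist gene Grem1 (ENSMUSG00000074934), and the inhibitory Smad genes Smad6 (ENSMUSG00000036867) and Smad7 (ENSMUSG00000025880). The genes were chosen by symbol from the deposited gene lists, and all 10 were found once in both libraries among 25906 genes. The first library came from 1 clone with the genotype MyoD-KO (KO below), and the second from 1 clone with the genotype MyoD-WT (WT below); both carry the strain label Myod1tm1Jae. Each clone was started from mouse embryonic fibroblasts that overexpressed Myf6 and was then picked as a colony that no longer depended on Myf6. Both clones were harvested at passage 4 from the same medium, which held bFGF at 10 ng/mL, forskolin at 5 µM, RepSox at 5 µM and CHIR99021 at 3 µM. Forskolin activates adenylyl cyclase, CHIR99021 inhibits the kinase GSK-3, and RepSox inhibits the TGF-beta type I receptor that Tgfbr1 encodes, so every value below was measured with that inhibitor in the culture medium. With 1 library of 1 clone per genotype, genotype and clone cannot be told apart, and no statistical test between the genotypes was possible.

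BMP and TGF-beta ligands are secreted dimers that bring together type I and type II receptor kinases on the cell surface. Activated BMP type I receptors phosphorylate Smad1, Smad5 and Smad9, and activated TGF-beta type I receptors phosphorylate Smad2 and Smad3; both sets of Smads join Smad4 and enter the nucleus. Gremlin and noggin bind BMPs outside the cell, and Smad6 and Smad7, themselves targets of the pathways, act against the receptors inside it. In skeletal muscle, BMP signalling is known for keeping progenitors proliferating, and TGF-beta for holding back differentiation and fusion and for driving fibroblast matrix genes.

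Levels are given as CPM, the unique molecular identifiers (UMIs) of a gene summed over a class of cells and scaled to 1000000 UMIs of that class. Each 95% interval in brackets is an exact Poisson interval for a CPM or an exact binomial interval for a ratio or a share, and covers counting error only, not the spread between clones. The files held 7670 KO and 8191 WT barcodes with 282739488 and 285232252 UMIs, and 14 barcode sequences occurred in both. After filtering, 5638 KO cells with a median of 40426.5 UMIs and 7316 WT cells with a median of 35515.5 UMIs were kept. Myod1, the gene named in the genotype, was at 63.3 CPM in KO cells and 162 CPM in WT cells, and tags from the 3′ end do not show which part of the gene was deleted.

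Cells were put into classes by expression gates. Pax7+ cells, carrying the progenitor factor Pax7, numbered 3009 in KO and 4295 in WT. Myog+ cells, carrying the differentiation factor myogenin, numbered 796 in KO and 904 in WT. Muscle-rich cells, with at least 1% of UMIs from 10 contractile and other muscle genes, numbered 1112 in KO and 1316 in WT. With at least 2000 genes and at most 10% mitochondrial UMIs, 393 KO and 938 WT muscle-rich cells remained. More of the KO than of the WT class thus failed the stricter filter, and KO over WT ratios in this class are read with that limit. Crabp1/Dcn-positive cells numbered 152 in KO and 4 in WT, so this class was compared within the KO library. A further 9 KO cells and 1 WT cell met the Crabp1/Dcn gate together with a muscle gate, and 560 KO and 796 WT cells met no gate. The classes are ranges on continuous scales rather than cell types. In KO, 625 cells lay within 1.5-fold of the Pax7 gate, 337 of the Myog gate, 95 of the muscle gate and 23 of the Crabp1/Dcn gate, and in WT the counts were 1079, 383, 251 and 5. The median Myog level was 865 CPM in KO against 1008.5 CPM in WT muscle-rich cells, 17.3 CPM in KO against 0 in WT Pax7+ cells, and 0 in KO Crabp1/Dcn-positive cells. The median Pax7 level was 0 in KO against 32.4 CPM in WT Myog+ cells, and 0 in muscle-rich cells of both clones. The median of Crabp1 plus Dcn was 0 in the Pax7+, Myog+ and muscle-rich classes of both clones. Of 6 fibroblast markers, 5 were detected in the KO Crabp1/Dcn-positive cells, at 1493.5 CPM in sum, but Col3a1 made up 1453.3 CPM of it, Col1a1 was at 7.197 CPM and Col1a2 was at 0. The 3 endothelial markers summed to 1.38 CPM and the 3 immune markers to 1.94 CPM in the same cells.

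The sequence upstream of 4 of the genes is shown because they form 2 pairs with a shared highest class. Grem1 and Tgfb1 had their highest levels in Crabp1/Dcn-positive cells, and Smad6 and Bmpr1b had theirs in Pax7+ cells, among classes of at least 100 cells. The pairs are a choice, since Smad7 also peaked in the first class and Bmp2, Bmp4, Bmpr1a and Tgfbr1 in the second. The RefSeq promoter table (GRCm38.p6), an older build than the GRCm39 of the counts, holds 8 of the 10 genes; it has no entry for Bmp2 or Smad7. Capitals mark GTCTAGAC, the Smad-binding palindrome, GGCGCC, a GC-rich Smad1 and Smad5 element, and CANNTG, the E-box that MyoD-family factors bind. All 3 motifs read the same on both strands, apart from the free middle bases of the E-box, and none overlapped another in the stretches shown.
Smad6, chr9:64022056-64022309, minus strand: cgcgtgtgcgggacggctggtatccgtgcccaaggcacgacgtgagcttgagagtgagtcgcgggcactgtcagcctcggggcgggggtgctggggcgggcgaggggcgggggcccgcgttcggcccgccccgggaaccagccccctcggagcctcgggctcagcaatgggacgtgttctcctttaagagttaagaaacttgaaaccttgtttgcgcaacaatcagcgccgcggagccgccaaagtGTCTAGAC
Bmpr1b, chr3:141982265-141982514, minus strand: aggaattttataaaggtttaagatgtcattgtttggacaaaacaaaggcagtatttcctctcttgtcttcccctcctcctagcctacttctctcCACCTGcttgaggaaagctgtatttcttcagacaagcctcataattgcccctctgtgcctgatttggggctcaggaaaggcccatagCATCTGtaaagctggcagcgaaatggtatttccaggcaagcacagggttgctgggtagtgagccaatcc
Grem1, chr2:113758649-113758898, minus strand: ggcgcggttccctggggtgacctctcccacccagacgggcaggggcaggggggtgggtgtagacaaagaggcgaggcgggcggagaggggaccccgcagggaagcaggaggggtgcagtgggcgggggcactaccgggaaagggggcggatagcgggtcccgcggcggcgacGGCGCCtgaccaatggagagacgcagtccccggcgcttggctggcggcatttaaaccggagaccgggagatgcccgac
Tgfb1, chr7:25686752-25687001, plus strand: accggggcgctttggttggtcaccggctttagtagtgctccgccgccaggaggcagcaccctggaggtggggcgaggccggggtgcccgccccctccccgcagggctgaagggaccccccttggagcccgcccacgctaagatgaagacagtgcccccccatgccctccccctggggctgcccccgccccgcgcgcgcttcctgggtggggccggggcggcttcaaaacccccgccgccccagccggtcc
Each stretch ends at the base before the annotated transcript start, except that of Smad6, which runs 4 bases past it because its GTCTAGAC spans the start. In windows from 250 bases before to 50 after the start, GTCTAGAC occurred in 0.213% of all 32851 windows and, among the genes here, in Smad6 alone. GGCGCC occurred in 11.9% of windows, and once each in Grem1, Bmpr1a and 1 of the 2 Tgfbr1 windows. The E-box occurred in 72.3% of windows. The Bmpr1b window shown had 3, of which 2 lie in the printed stretch, while another Bmpr1b window had 1 and a further one had 0. Bmp4 also had 3, and Tgfb2, Smad6 and 1 of the 2 Tgfbr1 windows had 1 each. Grem1, Tgfb1 and Bmpr1a had 0. These matches describe letters and were not tested for binding, and the motifs were picked with the sequences in view.

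**Figure D1:**
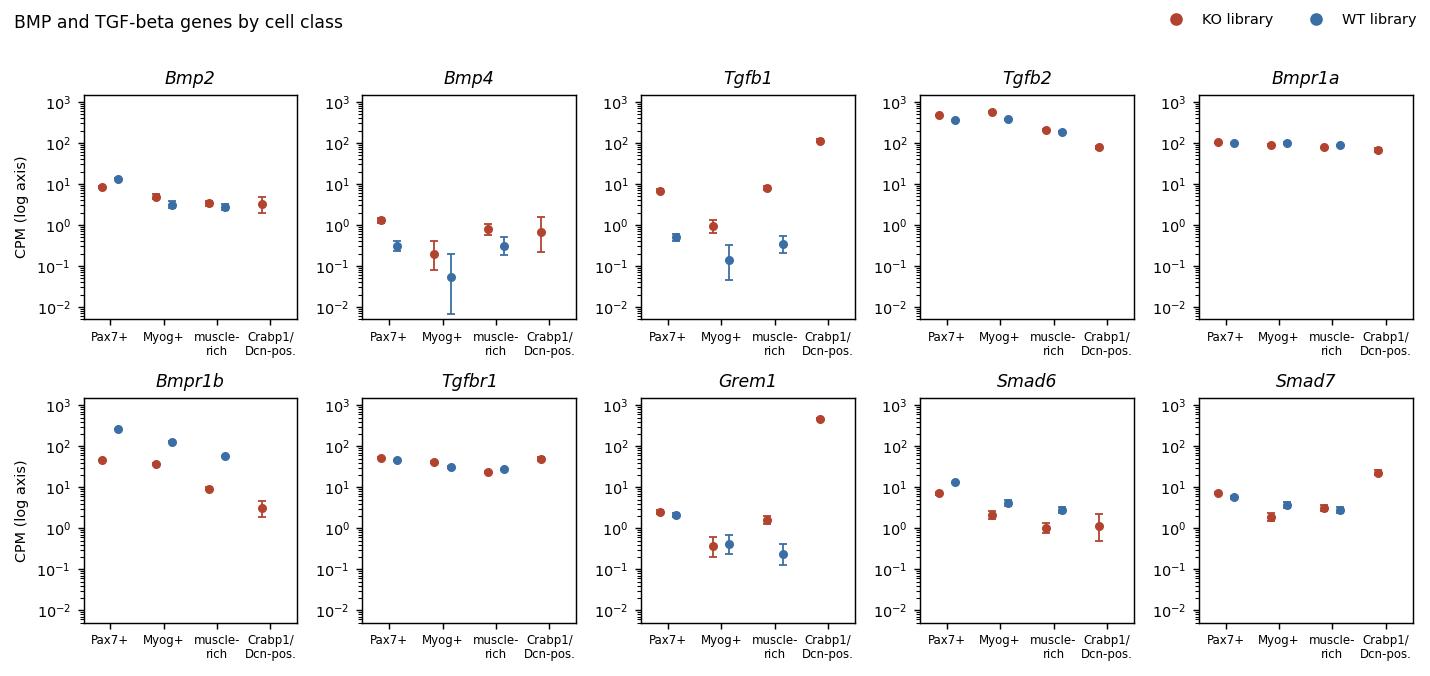
Levels of the 10 genes in CPM (log axis) in Pax7+, Myog+, muscle-rich and Crabp1/Dcn-positive cells, KO in red and WT in blue, with 95% counting intervals; classes under 100 cells are not drawn. Grem1 reached 473 CPM and Tgfb1 115 CPM in KO Crabp1/Dcn-positive cells, and Bmpr1b was lower in KO than in WT in all 3 myogenic classes.

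Throughout, a gene was called higher or lower when it was at least 2-fold apart and reached 10 CPM in the higher of both groups. Over all cells 3 of the 10 genes met this rule between the genotypes: Tgfb1 and Grem1 were higher in KO and Bmpr1b was lower in KO. Tgfb1 and Grem1 reached 10 CPM only in KO, so neither could have been called lower. Of all 8793 genes that reached 10 CPM, 13.3% were higher and 3.4% lower in KO; 6 of the 10 genes reached that level. Scaling by TMM, which sets totals by the bulk of genes, moved every log2 ratio of KO over WT by -0.18 over all cells and -0.20 in Pax7+ cells, and ratios close to 1 are read against that shift.

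Among the ligands, Tgfb2 was detected in most cells of both clones. Tgfb2 was at 487 CPM in KO against 355 CPM in WT Pax7+ cells. In Myog+ cells Tgfb2 was at 581 CPM in KO against 381 CPM in WT. Muscle-rich cells had less, 211 CPM in KO against 188 CPM in WT, and KO Crabp1/Dcn-positive cells had 78.7 CPM [72.4 to 85.5]. The median Pax7+ cell had 430 CPM in KO against 317 CPM in WT, and 99.3% of KO and 99.1% of WT Pax7+ cells had a UMI of the gene. The ratio of KO over WT was 1.37 [1.36 to 1.39] in Pax7+ cells, 1.52 [1.49 to 1.56] in Myog+ cells and 1.12 [1.09 to 1.16] in muscle-rich cells, each under 2-fold. In KO, Tgfb2 was lower in muscle-rich than in Pax7+ cells (ratio 0.433 [0.425 to 0.443]) and lower in Crabp1/Dcn-positive than in Pax7+ cells (0.162 [0.149 to 0.176]). The same muscle-rich over Pax7+ ratio in WT was 0.529 [0.518 to 0.541], just short of 2-fold. The order of Tgfb2 levels was thus Myog+, Pax7+, muscle-rich in both clones, but the step between Myog+ and Pax7+ cells was small in WT, where the ratio was 1.07, and its sign changed under other processing.

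Tgfb1, the best-known ligand of fibrosis, had the largest KO over WT ratio of the 10 genes over all cells, with an interval that overlapped that of Grem1. KO cells had 2850 UMIs of Tgfb1, 11.8 CPM [11.4 to 12.3], against 216 UMIs, 0.774 CPM [0.674 to 0.885], in WT cells, a ratio of 15.3 [13.3 to 17.6]. Tgfb1 was at 6.92 CPM in KO against 0.500 CPM in WT Pax7+ cells, a ratio of 13.9 [11.1 to 17.6]. In muscle-rich cells it was at 8.06 CPM in KO against 0.351 CPM in WT, a ratio of 23.0 [14.5 to 38.6]. In Myog+ cells it was at 0.931 CPM in KO, from 33 UMIs, and 0.139 CPM in WT, from 5 UMIs. All 3 myogenic classes of the KO clone had more Tgfb1 than their WT counterparts, with intervals that did not overlap, although none reached 10 CPM. KO Crabp1/Dcn-positive cells stood far above them at 115 CPM [107 to 123], 16.6-fold [15.1 to 18.2] over KO Pax7+ cells. In the 4 WT Crabp1/Dcn-positive cells 9 Tgfb1 UMIs were found in 3 cells, and the WT cells outside all gates were at 4.31 CPM, against 33.9 CPM in the KO cells outside all gates. Without the Crabp1/Dcn-positive and mixed cells, Tgfb1 was at 8.498 CPM in KO against 0.732 CPM in WT; the ratio was 11.6 [10.0 to 13.5], but the level fell short of 10 CPM.

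Bmp2 and Bmp4, ligands of the BMP branch, were low in both clones. Bmp2 was at 8.41 CPM in KO against 13.6 CPM in WT Pax7+ cells, a ratio of 0.619 [0.575 to 0.665]. In Myog+ cells the order was the other way, 4.94 CPM in KO against 3.14 CPM in WT, and in muscle-rich cells Bmp2 was at 3.36 CPM in KO against 2.69 CPM in WT. Within WT, Bmp2 was lower in Myog+ than in Pax7+ cells (0.231 [0.189 to 0.279]) and lower in muscle-rich than in Pax7+ cells (0.198 [0.166 to 0.234]). The same ratios in KO, where Bmp2 stayed under 10 CPM, were 0.587 [0.498 to 0.690] and 0.399 [0.337 to 0.470]. Bmp4 had 244 UMIs in all KO cells (1.01 CPM) and 76 in all WT cells (0.272 CPM). At this depth its KO over WT ratio was 3.72 [2.86 to 4.87] over all cells and could not be resolved in Myog+ cells, where KO had 7 UMIs and WT had 2.

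Of the 3 receptor genes, only Bmpr1b was at least 2-fold apart between the clones. Bmpr1b encodes a BMP type I receptor with a narrower tissue range than Bmpr1a. In Pax7+ cells Bmpr1b was at 46.1 CPM [44.9 to 47.3] in KO and 267 CPM [265 to 270] in WT. In Myog+ cells it was at 37.0 CPM in KO against 127 CPM in WT, and in muscle-rich cells at 9.23 CPM in KO against 57.2 CPM in WT. KO was lower than WT in each of these classes: the ratio was 0.173 [0.168 to 0.177] in Pax7+, 0.290 [0.273 to 0.309] in Myog+ and 0.162 [0.146 to 0.178] in muscle-rich cells. Bmpr1b was the only one of the 10 genes called lower in each of the 3 classes, where 4.05%, 4.05% and 6.64% of all genes tested were lower in KO and 13.8%, 11.3% and 10.5% were higher. After thinning to 5000 UMIs per cell, 14.96% of KO and 60.4% of WT Pax7+ cells had a Bmpr1b UMI, and without thinning the shares were 45.8% in KO and 92.7% in WT. Among KO Pax7+ cells the most Bmpr1b-rich 5% held 41.2% of its UMIs, against 19.3% in WT Pax7+ cells.

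Bmpr1b also differed between the myogenic classes of a clone. In WT it was lower in Myog+ than in Pax7+ cells (0.477 [0.463 to 0.492], a call that ends with TMM scaling, at a log2 ratio of -0.94 in place of -1.07, or with gate levels divided by 2, at -0.69) and lower in muscle-rich than in Pax7+ cells (0.214 [0.206 to 0.222]). In KO the Myog+ over Pax7+ ratio was 0.802 [0.755 to 0.852], while the muscle-rich over Pax7+ ratio was 0.200 [0.182 to 0.220] and met the rule. KO Crabp1/Dcn-positive cells had 22 UMIs, 3.04 CPM, or 0.0661 [0.0414 to 0.100] of the level in KO Pax7+ cells. The 20 UMIs found in the 4 WT Crabp1/Dcn-positive cells all lay in 1 cell.

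Bmpr1a, the broadly expressed BMP type I receptor gene, had the flattest profile. Bmpr1a was at 104 CPM in KO against 99.5 CPM in WT Pax7+ cells, 88.9 CPM in KO against 100.3 CPM in WT Myog+ cells, and 78.3 CPM in KO against 89.2 CPM in WT muscle-rich cells. KO Crabp1/Dcn-positive cells had 67.4 CPM [61.6 to 73.7]. Its KO over WT ratio was 1.05 [1.02 to 1.07] in Pax7+ and 0.976 [0.959 to 0.994] over all cells; the sign of the first changed with TMM scaling and that of the second with thinning. Tgfbr1, the type I receptor gene whose product RepSox inhibits, was at 52.2 CPM in KO against 45.8 CPM in WT Pax7+ cells. In Myog+ cells Tgfbr1 was at 41.3 CPM in KO against 31.4 CPM in WT, and in muscle-rich cells at 23.4 CPM in KO against 27.1 CPM in WT. KO Crabp1/Dcn-positive cells had 49.3 CPM of Tgfbr1, 0.944 [0.846 to 1.05] of the KO Pax7+ level, so any difference lay within counting error. Tgfbr1 was lower in muscle-rich than in Pax7+ cells in KO (0.448 [0.420 to 0.476]), and the ratio in WT was 0.592 [0.560 to 0.626].

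**Figure D2:**
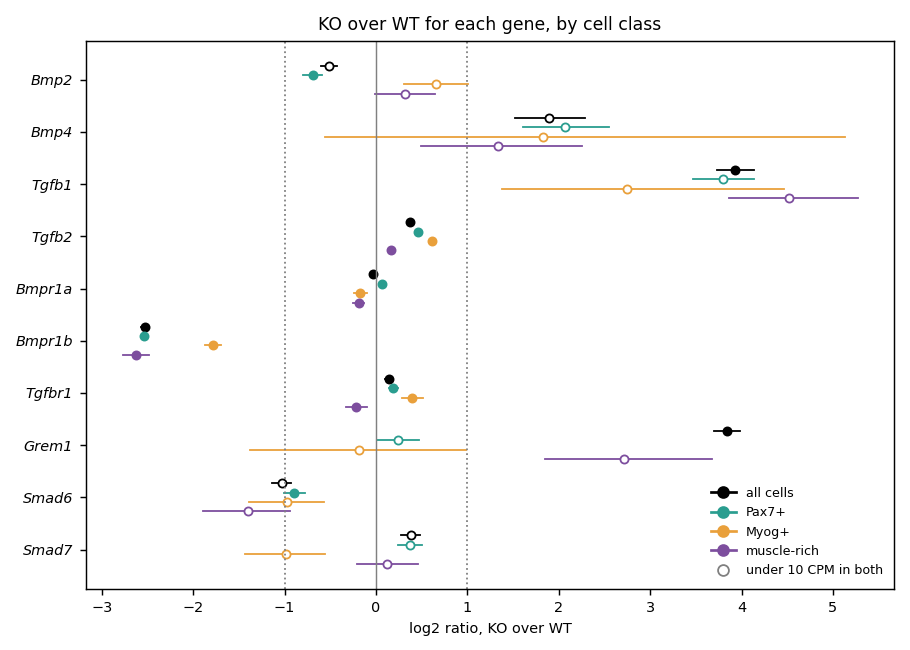
The log2 ratio of KO over WT for each gene over all cells and in Pax7+, Myog+ and muscle-rich cells, with 95% counting intervals; open points are under 10 CPM in both clones and dotted lines mark 2-fold. Bmpr1b lay left of the 2-fold line in all 4 comparisons, Tgfb1 lay right of it in all 4, and Grem1 lay right of it over all cells (3.84) but near 0 in Pax7+ cells (0.24).

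Grem1, which encodes the BMP antagonist gremlin, had its highest level in the Crabp1/Dcn-positive cells of the KO clone. These 152 cells, 2.70% of KO cells, held 64.7% of the library's Grem1 UMIs. Their Grem1 level was 473 CPM [457 to 489], with a median cell at 379 CPM and quartiles at 187 and 636 CPM. KO Pax7+ cells had 2.43 CPM, Myog+ cells 0.367 CPM and muscle-rich cells 1.57 CPM, and the ratio of Crabp1/Dcn-positive over Pax7+ cells was 194 [173 to 219]. The cells outside all gates held another 25.6% of KO Grem1 UMIs, at 69.9 CPM. Among them 68 of 560 KO cells had at least 3 Grem1 UMIs, against 3 of 796 WT cells, so Grem1 in KO was not limited to the gated class. Thinned to 5000 UMIs, 71.5% [63.6 to 78.6] of KO Crabp1/Dcn-positive cells had a Grem1 UMI, against 0.598% of KO Pax7+ cells and 0.253% of KO Myog+ cells; the median depths before thinning were 45208.5, 39048.0 and 42121.5 UMIs.

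Between the clones, the size of the Grem1 difference varied with the cells compared. Over all cells Grem1 was at 21.9 CPM in KO against 1.53 CPM in WT, a ratio of 14.3 [12.9 to 15.8]. Within Pax7+ cells it was at 2.43 CPM in KO against 2.06 CPM in WT, a ratio of 1.18 [1.01 to 1.38], whose sign changed under other processing. In muscle-rich cells it was at 1.57 CPM in KO, from 79 UMIs, against 0.240 CPM in WT, from 13 UMIs, a ratio of 6.54 [3.61 to 12.8], and the log2 ratio of 2.71 became 0.30 with a stricter cell filter, at least 2000 genes and at most 10% mitochondrial UMIs. The cells outside all gates were at 69.9 CPM in KO against 2.45 CPM in WT. The 4 WT Crabp1/Dcn-positive cells held 1 Grem1 UMI, at 8.335 CPM [0.211 to 46.4], and were too few for a comparison. Without the Crabp1/Dcn-positive and mixed cells the KO level was 7.54 CPM and the WT level 1.52 CPM; the ratio was 4.94 [4.45 to 5.51] and the 10 CPM minimum was no longer met. Among Pax7+ cells, 2.69% of KO Pax7+ cells had a UMI, against 5.59% of WT Pax7+ cells, and the highest count in 1 cell was 64 in KO and 5 in WT Pax7+ cells. Outside the gates 1 WT cell held 24 of that class's 55 Grem1 UMIs.

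Most KO Crabp1/Dcn-positive cells held both Grem1 and Tgfb1, as each gene was found in most of them. In the KO Crabp1/Dcn-positive class 128 of 152 cells, or 84.2%, had UMIs of both genes and 2 had neither; 93.4% had Grem1 and 89.5% had Tgfb1. Whether they met in a cell beyond those shares was not tested. In KO Pax7+ cells 27 of 3009 cells had both. Free RNA in the droplets can place UMIs of an abundant gene in other cells. The muscle actin gene Acta1, which was not used in a gate, was abundant in muscle-rich cells and detected in Pax7+ cells. Whether its UMIs in Pax7+ cells were free RNA or their own transcripts was not tested, so Acta1 does not set a scale for other genes. Acta1 was at 16398.7 CPM in KO muscle-rich cells and 212 CPM in KO Pax7+ cells, and at 6476.6 CPM in WT muscle-rich cells and 64.3 CPM in WT Pax7+ cells. Crabp1, a gate gene, was at 4292.0 CPM in KO Crabp1/Dcn-positive cells and 1.92 CPM in KO Pax7+ cells. The part of free RNA in the low levels of Grem1 and Tgfb1 outside the Crabp1/Dcn-positive cells was not tested.

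**Figure D3:**
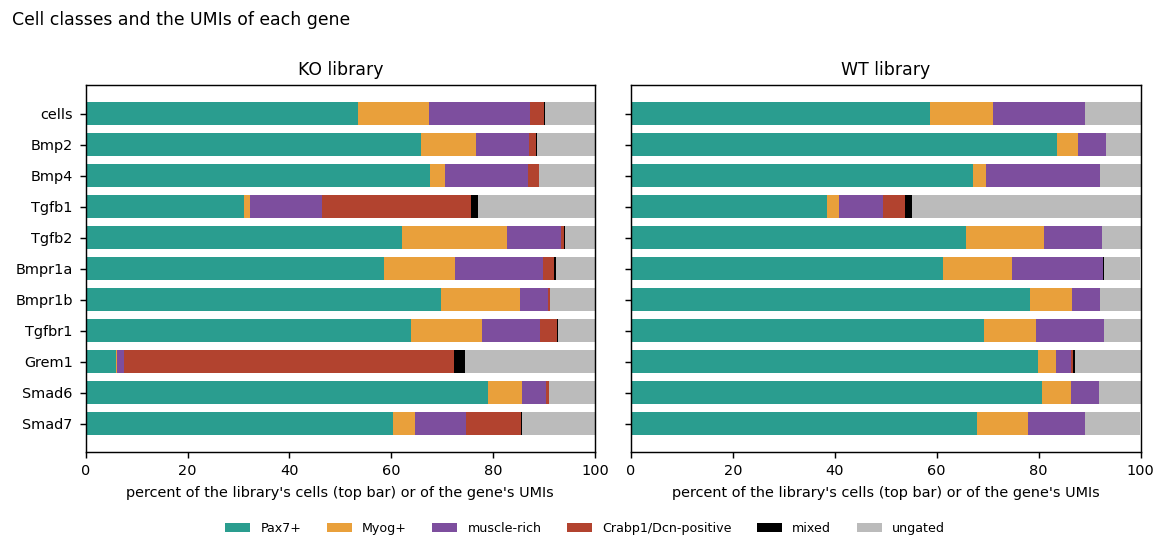
The share of each library's cells (top bar) and of each gene's UMIs that fell in each cell class, KO left and WT right. Crabp1/Dcn-positive cells made up 2.70% of KO cells but held 64.7% of Grem1, 29.1% of Tgfb1 and 10.6% of Smad7 UMIs.

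The 2 inhibitory Smad genes were low and followed different classes. Smad6, which acts mainly against BMP receptors, was at 7.06 CPM in KO against 13.1 CPM in WT Pax7+ cells. In Myog+ cells Smad6 was at 2.14 CPM in KO against 4.22 CPM in WT, and in muscle-rich cells at 1.03 CPM in KO against 2.73 CPM in WT. KO was below WT in all 3 classes, with ratios of 0.538 [0.497 to 0.581], 0.508 [0.381 to 0.674] and 0.378 [0.270 to 0.522]; in Pax7+ cells, where WT reached 10 CPM, the ratio was short of 2-fold and passed it with TMM scaling. Within WT, Smad6 was lower in Myog+ (0.321 [0.271 to 0.379]) and in muscle-rich cells (0.208 [0.175 to 0.246]) than in Pax7+ cells. In KO the same ratios were 0.304 [0.237 to 0.384] and 0.146 [0.108 to 0.193], with all levels under 10 CPM. KO Crabp1/Dcn-positive cells had 8 UMIs of Smad6, 1.11 CPM [0.478 to 2.18]. Smad6 was thus at its highest in Pax7+ cells and low in KO Crabp1/Dcn-positive cells. Whether these levels are linked to the palindrome at its start was not tested.

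Smad7, which acts against both TGF-beta and BMP receptors, had its highest level in KO Crabp1/Dcn-positive cells, 22.7 CPM [19.4 to 26.5], which was 3.12-fold [2.63 to 3.69] over KO Pax7+ cells. In Pax7+ cells Smad7 was at 7.28 CPM in KO against 5.62 CPM in WT, and in muscle-rich cells at 3.10 CPM in KO against 2.84 CPM in WT. In Myog+ cells it was at 1.89 CPM in KO, from 67 UMIs, and 3.75 CPM in WT, from 135 UMIs. The KO cells outside all gates were at 11.4 CPM and the WT ones at 6.63 CPM.

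The calls within each clone stand beside the following shares of all genes. In KO no call was made among the 10 genes between Myog+ and Pax7+ cells, where 8.94% of all genes tested were lower and 4.92% higher in Myog+ cells. In WT Bmp2, Bmpr1b and Smad6 were called lower in Myog+ cells, and 4.98% of all genes were lower and 4.41% higher. Bmp2 and Smad6 reached 10 CPM only in WT Pax7+ cells. The KO ratio of Smad6, 0.304, was close to the WT ratio of 0.321, at levels too low to be called. The Bmp2 ratio was 0.587 in KO against 0.231 in WT. The Bmpr1b ratio was 0.802 in KO against 0.477 in WT, and its WT call ended with TMM scaling. Whether the clones differ in these ratios was not tested. In muscle-rich cells Tgfb2, Bmpr1b and Tgfbr1 were called lower in KO, where 32.4% of all genes were lower, and Bmp2, Bmpr1b and Smad6 in WT, where 25.8% were. None of the 10 was called higher in muscle-rich cells (11.6% of all genes in KO and 12% in WT were). The 10 muscle genes of the gate took 55551.6 CPM in KO and 36008.4 CPM in WT muscle-rich cells. TMM scaling moved each muscle-rich over Pax7+ log2 ratio by 0.48 in KO and 0.35 in WT, and with that shift Bmpr1b was the 1 gene of the 3 in KO that stayed 2-fold lower. For Crabp1/Dcn-positive over Pax7+ cells in KO, Grem1, Tgfb1 and Smad7 were called higher and Tgfb2 and Bmpr1b lower, where 11% of all genes were higher and 17.5% lower. Grem1, Tgfb1 and Smad7 reached 10 CPM only in the Crabp1/Dcn-positive cells, so they could only enter as higher and their number is no support for a direction.

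The rest of the pathway was read from 6 lists with 96 other genes, of which 55 reached 10 CPM over all cells. In KO 16 were higher than in WT and 8 lower; among all genes tested 13.3% were higher and 3.4% lower. The median log2 ratio was 0.33, against 0.08 for all genes tested, and TMM scaling changed the counts to 13 higher and 10 lower. Some genes reached 10 CPM in a single library, among them Inhbb, Fst and Runx2 in KO and Ltbp2 and Tgif2 in WT. Such genes could not be called the other way, here or in the classes below. The counts and the median are therefore no support for a direction. In Pax7+ cells alone 17 were higher and 8 lower of 53, and 13.8% and 4.05% of all genes. TMM scaling gave 13 and 8. In Myog+ cells 13 were higher and 8 lower of 49, beside 11.3% and 4.05% of all genes, and TMM scaling gave 10 and 10. Muscle-rich cells leaned the other way, with 7 higher and 10 lower of 47, beside 10.5% and 6.64% of all genes. Of 5 other ligand genes at that level, 2 were higher in KO: Inhbb, an activin subunit (12.3 CPM in KO against 1.12 CPM in WT), and Gdf15, a stress-induced distant family member (28.8 CPM in KO against 7.70 CPM in WT). Gdf11, close in sequence to myostatin, was at 14.1 CPM in KO against 9.72 CPM in WT, and Tgfb3 at 22.8 CPM in KO against 26.2 CPM in WT. Of 8 receptor and co-receptor genes 3 were higher in KO and none lower, but with TMM scaling Tgfbr2 alone was higher. These were Tgfbr2, the TGF-beta type II receptor gene (74.3 CPM in KO against 22.1 CPM in WT), Rgmb, a BMP co-receptor gene (27.5 CPM in KO against 13.2 CPM in WT), and Acvr1, a type I receptor gene (47.3 CPM in KO against 23.5 CPM in WT). Acvr2a, an activin type II receptor gene, was at 52.4 CPM in KO against 90.1 CPM in WT.

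Antagonist and matrix-binding genes went both ways, with 4 higher and 3 lower of 11, beside the 13.3% and 3.4% of all genes. Fst, whose product follistatin binds activin and myostatin, was at 46.3 CPM in KO against 6.29 CPM in WT, a ratio of 7.36. The fibrillin gene Fbn2 was at 16.9 CPM in KO against 110 CPM in WT. Of the genes for latent TGF-beta binding proteins, Ltbp2 was at 2.47 CPM in KO against 12.4 CPM in WT, and Ltbp1 went the other way at 78.6 CPM in KO against 16.2 CPM in WT. Among Smads and their regulators 3 of 15 were higher and 1 lower, beside the same shares of all genes, and Smad3 fell short of 2-fold with TMM scaling. Smad3 was at 49.7 CPM in KO against 23.4 CPM in WT, the ubiquitin ligase gene Nedd4l at 102 CPM in KO against 36.4 CPM in WT, and the corepressor gene Tgif1 at 18.8 CPM in KO against 4.49 CPM in WT. Tgif2, related to Tgif1, was at 8.78 CPM in KO against 25.5 CPM in WT.

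BMP target genes gave 1 higher and 1 lower of 6 in KO, beside 13.3% and 3.4% of all genes. Runx2, the osteoblast transcription factor gene, was at 26.1 CPM in KO against 2.08 CPM in WT, and Hey1 at 22.0 CPM in KO against 53.0 CPM in WT. The BMP-induced inhibitor genes Id1, Id2 and Id3 were under 2-fold apart. Id1 was at 184 CPM in KO against 202 CPM in WT. Id2 was at 71.2 CPM in KO against 127 CPM in WT and Id3 at 303 CPM in KO against 200 CPM in WT. Id2 and Id3 thus went in opposite directions, though Id2 passed 2-fold lower with TMM scaling. TGF-beta target genes gave 3 higher and 4 lower of 11, beside the same shares. Cdkn2b, a cell-cycle inhibitor gene, was at 43.2 CPM in KO against 5.08 CPM in WT, and Thbs1, whose product can release latent TGF-beta, at 22.6 CPM in KO against 5.38 CPM in WT. Tagln, a smooth muscle actin-binding protein gene, was at 46.3 CPM in KO against 253 CPM in WT. The members of the BMP and of the TGF-beta target lists therefore did not share a direction between the clones.

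**Figure D4:**
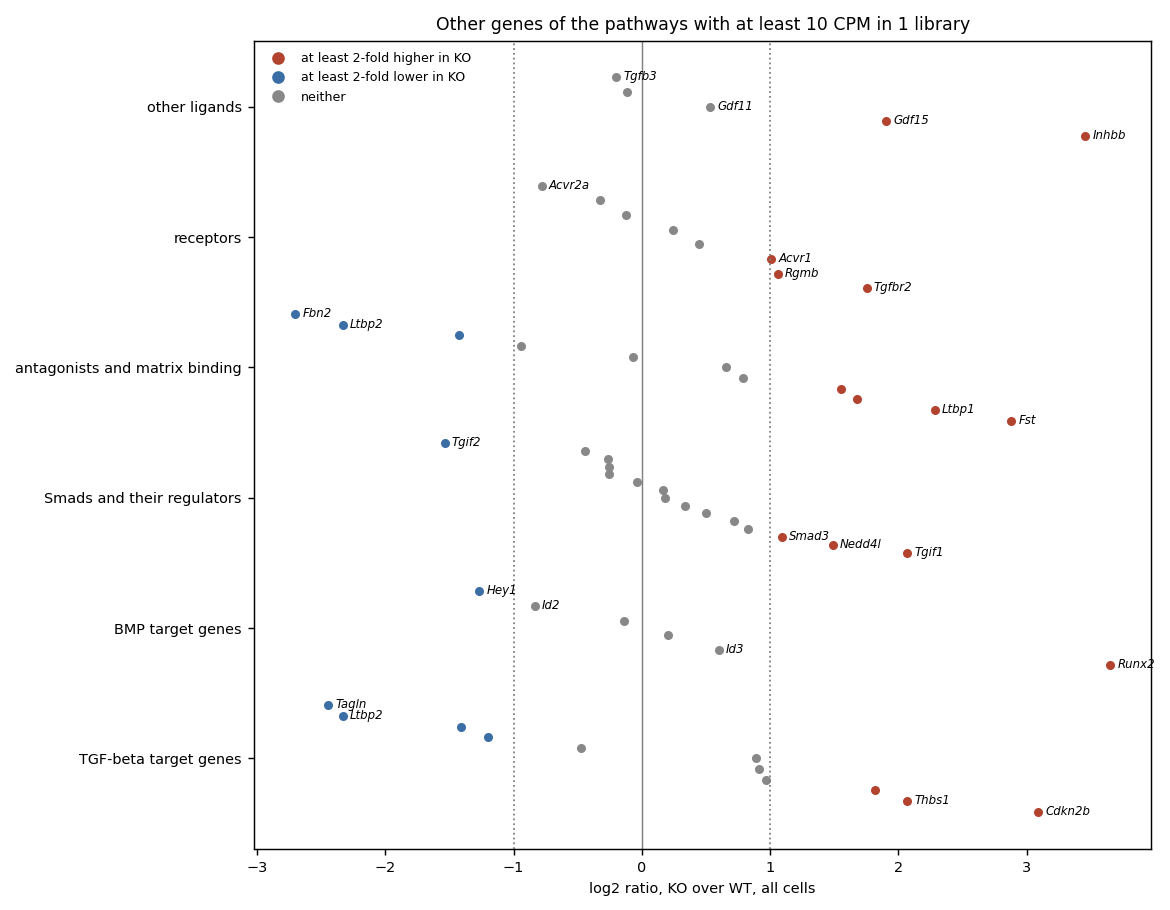
The log2 ratio of KO over WT over all cells for the 55 other pathway genes that reached 10 CPM, by list; red points were at least 2-fold higher and blue points at least 2-fold lower in KO, and up to 4 genes per list are named. Each list spans 0, and the antagonist and matrix list runs from Fbn2 (-2.70) to Fst (2.88).

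In the KO Crabp1/Dcn-positive cells, the lists moved apart from Pax7+ cells in 33 of 57 genes, with 22 higher and 11 lower; among all genes 11% were higher and 17.5% lower. Of 12 TGF-beta targets 8 were higher and 2 lower. Among the higher, Fn1, the fibronectin gene, was at 2590.3 CPM in Crabp1/Dcn-positive and 255 CPM in Pax7+ cells. Tgfbi was at 26.4 CPM in Crabp1/Dcn-positive and 0.602 CPM in Pax7+ cells, and Cdkn2b at 247 CPM in Crabp1/Dcn-positive and 36.7 CPM in Pax7+ cells. The 2 lower were Acta2, at 35.0 CPM in Crabp1/Dcn-positive and 123 CPM in Pax7+ cells, and Tagln, at 24.5 and 51.1 CPM. Tagln fell short of 2-fold with TMM scaling. Of 6 BMP targets 4 were lower and 1 higher, but with TMM scaling 2 were lower, since Id2 and Id3 fell short of 2-fold: Hey1 was at 4.15 CPM in Crabp1/Dcn-positive and 34.1 CPM in Pax7+ cells, and Atoh8 at 0.554 CPM in Crabp1/Dcn-positive and 11.3 CPM in Pax7+ cells. Runx2, the 1 higher, was at 139 CPM in Crabp1/Dcn-positive and 26.1 CPM in Pax7+ cells. Inhbb was at 121 CPM in Crabp1/Dcn-positive and 11.6 CPM in Pax7+ cells. Lrrc32, whose product anchors latent TGF-beta on the cell surface, was at 23.3 CPM in Crabp1/Dcn-positive and 0.250 CPM in Pax7+ cells, and the antagonist gene Nog was at 1.11 CPM in Crabp1/Dcn-positive and 15.4 CPM in Pax7+ cells. The fibroblast markers summed to 1493.5 CPM in Crabp1/Dcn-positive and 504 CPM in Pax7+ cells, of which Col3a1 alone made up 1453.3 and 500 CPM. Col1a1, Pdgfra, Lum and Thy1 were also higher in Crabp1/Dcn-positive cells, at 22.7 CPM or less. Col1a2 went the other way, at 0 in Crabp1/Dcn-positive and 0.845 CPM in Pax7+ cells. The part of these markers in the list counts was not tested. Tgfbi and Lrrc32 were among the genes that reached 10 CPM only in Crabp1/Dcn-positive cells, and Hey1 and Atoh8 only in Pax7+ cells. Such genes could not be called the other way, so the list counts are no support for a direction.

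Profiles were also compared over the 7 library-by-class groups with at least 100 cells, using Pearson's r of log2(CPM + 1) over these groups. The closest profiles were sought among 9885 genes. These values describe 7 points that share libraries, and only 1 of them is a Crabp1/Dcn-positive class. Grem1 was at 473 CPM in that group and at most 2.43 CPM in the others, so its r values rest largely on that point. Tgfb1 and Grem1 had r = 0.91 with each other, Tgfb1 and Bmpr1b -0.87, and Bmpr1b and Smad6 0.85. Grem1 and Smad7 had 0.93, and Bmpr1a and Bmpr1b 0.89. The 3 genes closest to Grem1 were Cd248, Gm42537 and Mocs1 (0.991 to 0.997), and those closest to Tgfb1 were Crlf2, Rab1a and Itpr3 (0.995 to 0.998). For Smad7 they were Lrrc8a, Grcc10 and Pdgfrb (0.986 to 0.988), and for Smad6 Hey1, Arhgap12 and Ptprq (0.986 to 0.991). Bmpr1b was closest to Fzd3, Chchd6 and Msto1 (0.989 to 0.994), Tgfb2 to Gin1, Hsp90ab1 and Nudcd3 (0.982 to 0.996) and Tgfbr1 to Ano3, Gxylt1 and Psrc1 (0.987 to 0.990). Bmpr1a was closest to Pms1, Birc5 and Ube2c (0.977 to 0.981), and Bmp2 to Prr12, Fbxo21 and Hoxb2 (0.944 to 0.967).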

How the data were processed

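Droplet 3′ single-cell RNA-seq counts of 2 libraries were used. The deposited values are whole-number UMI counts per gene and barcode, written by Cell Ranger 7.2.0 per the file headers, on GRCm39 per the submitters' processing notes, which also name Seurat. Barcodes with at least 1000 genes and at most 15% mitochondrial UMIs were kept: 5782 of 7670 in KO and 7318 of 8191 in WT. Scrublet (in scanpy 1.11.5) then removed 144 KO and 2 WT barcodes; the WT call, 0.0273%, is too low to have worked, so settings with 6% of cells removed by score and with none removed were also run.

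Gates, applied in this order, were 10 muscle genes at 1% of UMIs or more, Crabp1 plus Dcn at 200 CPM with 3 UMIs, Myog at 200 CPM with 3 UMIs, and Pax7 at 50 CPM with 2 UMIs in cells without the Myog gate; cells passing the Crabp1/Dcn gate and a muscle or Myog gate were called mixed. Counts were summed per class and scaled to CPM. With 1 library per genotype no test was run, and a gene was called by size: 2-fold and 10 CPM in the higher group. TMM factors came from edgeR 4.0.16. The calling step was tested on simulated data.

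All 10 genes were described. In each pathway list up to 4 genes with the largest KO over WT log2 ratio among those at 10 CPM were named. The 3 genes of the most similar profile per member were also named. Id1 and the genes named in the Crabp1/Dcn-positive comparison were chosen after their values were seen. The members, lists and gates were chosen with earlier results of these data known, and 1 gene was left out of the lists and is not reported here.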

Additional observations from a re-analysis of the deposited data

Results flagged for a closer look

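For 3 of the 10 genes the ratio of KO over WT lay on opposite sides of 1 in different cell classes, with counting intervals that excluded 1 on both sides and with the same signs under TMM scaling. The Bmp2 ratio was 0.619 in Pax7+ cells and 1.57 in Myog+ cells. For Smad7 the ratio was 1.30 in Pax7+ cells and 0.505 in Myog+ cells. The Tgfbr1 ratio was 1.32 in Myog+ cells and 0.862 in muscle-rich cells. With 1 library per genotype these differences between classes were not tested. Each ratio is under 2-fold without TMM scaling, but with it the Smad7 log2 ratio in Myog+ cells was -1.17. Smad7 in both classes and Bmp2 in Myog+ cells stayed under 10 CPM in both clones.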

How the results depend on the processing

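No paired analysis was possible because each genotype has 1 library. Between the clones, 3 of the 10 genes were called over all cells; a minimum of 50 CPM or leaving out the Crabp1/Dcn-positive and mixed cells left 1, and no minimum gave 5. The 1 call in Pax7+ cells became 2 with TMM scaling or thinning to 5000 UMIs, and 3 with no minimum or a 1.5-fold threshold. In Myog+ cells 1 became 3 with no minimum and 2 at 1.5-fold, and in muscle-rich cells 1 became 5 with no minimum. For Myog+ over Pax7+ cells, no minimum gave 5 in KO (0 as reported) and 6 in WT (3), where a 50 CPM minimum left 1. For muscle-rich over Pax7+ cells, the 3 in KO became 1 with TMM scaling or a 3-fold threshold and 6 with no minimum, and the 3 in WT became 1 at 50 CPM and 5 at 1.5-fold. The 5 for Crabp1/Dcn-positive over Pax7+ cells became 3 at 50 CPM. Of the pathway lists, the 16 higher genes became 5 at 50 CPM and 29 with no minimum, and the 8 lower became 4 at 50 CPM, 3 at 3-fold and 16 with no minimum. Under the other filters, doublet settings, gates and averages these counts stayed within 1.5 times. No called ratio changed sign. Of single-gene log2 ratios 555 moved by no more than counting error and 245 by more, and of shares 482 and 108; the shares without thinning were added after the data were seen. The causes were not tested. Bmp4, with 76 UMIs in all WT cells, is limited by depth.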
